A study of Mus musculus with 10 samples.

Results

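The genes described here are 10 immediate early genes, Fos, Fosb, Fosl1, Fosl2, Jun, Junb and Jund, whose proteins make up the AP-1 transcription factor, and Egr1, Egr2 and Egr3 of the early growth response family. They were taken by symbol from the 24185 gene names on a 1-colour Agilent mouse array, where 11 probes on 20 spots carry them (10 spots for Fos, a pair of probes for Fosl2 and 1 probe for each of the others). The study asked how FGF5, a fibroblast growth factor of the testis, acts on mouse spermatogonia, and 10 arrays in 4 groups were read. The first 2 groups are germline stem (GS) cells, a spermatogonial line labelled as wild-type C57BL/6 and derived, by the methods of the study, from C57BL/6 x ICR intercrossed mice. These cells were kept for 3 days without FGF2 and GDNF and then for 24 h with (n = 2) or without (n = 2) 100 ng/mL FGF5. The other groups are GFP+ cells sorted by FACS from testes of 2.5-month-old Gfrα1-GFP mice on C57BL/6, either WT (n = 3) or Fgf5-/- carrying the go-moja allele (n = 3). The GFP marks cells that use the locus of Gfra1, the GDNF co-receptor, so both sorted groups carry that reporter and went through tissue dissociation and sorting before RNA extraction. The series describes its samples as independent experiments, without saying whether several mice were pooled, so the p-values below measure only the spread between these samples.

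AP-1 is a dimer of a JUN protein with a FOS or another JUN protein, and EGR proteins are zinc finger factors that bind GC-rich sites. Most of these genes are switched on within minutes of growth factor signalling, when ERK phosphorylates ELK factors that sit with SRF on serum response elements (CArG boxes), and their RNAs are short-lived. EGR1 and FOS RNA are also known to rise when tissue is dissociated. FOSL1 and FOSL2 (FRA-1 and FRA-2) lack the strong activation domain of FOS, JUND is usually present without stimulation, and JUNB often opposes JUN.

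Because serum response elements connect ERK to these genes, the promoters were searched for the sites of the factors concerned. RefSeq promoter windows (GRCm38.p6, 250 bases before to 50 after a start) were searched for 7 of the 10 members, with 11 windows. The 7 were Fos, Fosb, Fosl2, Jun, Junb, Jund and Egr2. Promoters of Egr1, Fosl1 and Egr3 were not searched, nor were sites farther from a start, so a CArG box there is left open. Among the windows searched, only those of Egr2 held a CArG box, which occurs in 1.63% of all 32851 windows. It was found in 4 of the 5 Egr2 windows as 2 distinct boxes, each with its first base at -72 from an annotated start, and the stretches around both are shown on the gene's strand with the box in capitals.

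Egr2, chr10:67537484-67537513 (+): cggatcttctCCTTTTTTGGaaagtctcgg

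Egr2, chr10:67537787-67537816 (+): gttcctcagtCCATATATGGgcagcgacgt

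The site bound by EGR proteins, GCGNGGGCG, was held by the windows of Fosb and Fosl2, with first bases at -50 and -79 from their starts, against 5.55% of all windows. These are shown likewise, with the EGR site in capitals, because they link the EGR and FOS branches by letters alone.

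Fosb, chr7:19310077-19310105 (-): tgacgcaagcGCGGGGGCGggtcccggag

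Fosl2, chr5:32136383-32136411 (+): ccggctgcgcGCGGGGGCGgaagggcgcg

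The CRE (TGACGTCA, in 1.79% of windows) and the AP-1 site (TGANTCA, in 7.81%) were in no searched window of the members on either strand. A match of letters is a description and not a bound site, and factors were not measured in these data.

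A value below is the log2 signal of a probe relative to the 75th percentile of all non-control spots of its array, so 0 is that percentile and values of different probes are not compared with each other. A probe was well above background when the scanner software called over 0.5 of its spots so, and it was tested when this held on every array of at least 1 group compared. On these terms 8 members (9 probes) were tested in each comparison. The probes of Junb and Egr3 were dim and were not tested.

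The 10 arrays had between 55.25% and 65.86% of probes well above background and 0 saturated spots, and their 75th percentiles ran from 575 to 1091 signal units. All 6 markers of undifferentiated spermatogonia and all 3 germ cell markers were well above background on every array. Of the markers of other cells, Amh (Sertoli cells), Cyp11a1 (Leydig cells), Emcn (endothelium), Lyz2 (macrophages) and Acrv1 (spermatids) were not well above background on any array. On all 10 arrays, however, 1 of 5 Sertoli markers (Rhox5), 2 of 4 Leydig markers (Cyp17a1 and Star), 2 of 5 endothelial markers (Kdr and Pecam1), 3 of 5 macrophage markers (Csf1r, Cd68 and Cd14) and 3 of 5 spermatid markers (Prm1, Prm2 and Tnp1) were. So were 4 of 5 spermatocyte markers (Hspa2, Piwil1, Sycp1 and Sycp3). The same held for 6 of 10 markers of peritubular cells and fibroblasts (Acta2, Col1a1, Col1a2, Fn1, Thy1 and Vim). Summed levels of these lists are given beside the comparison of cultured with sorted cells, which they touch.

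**Figure D1:**
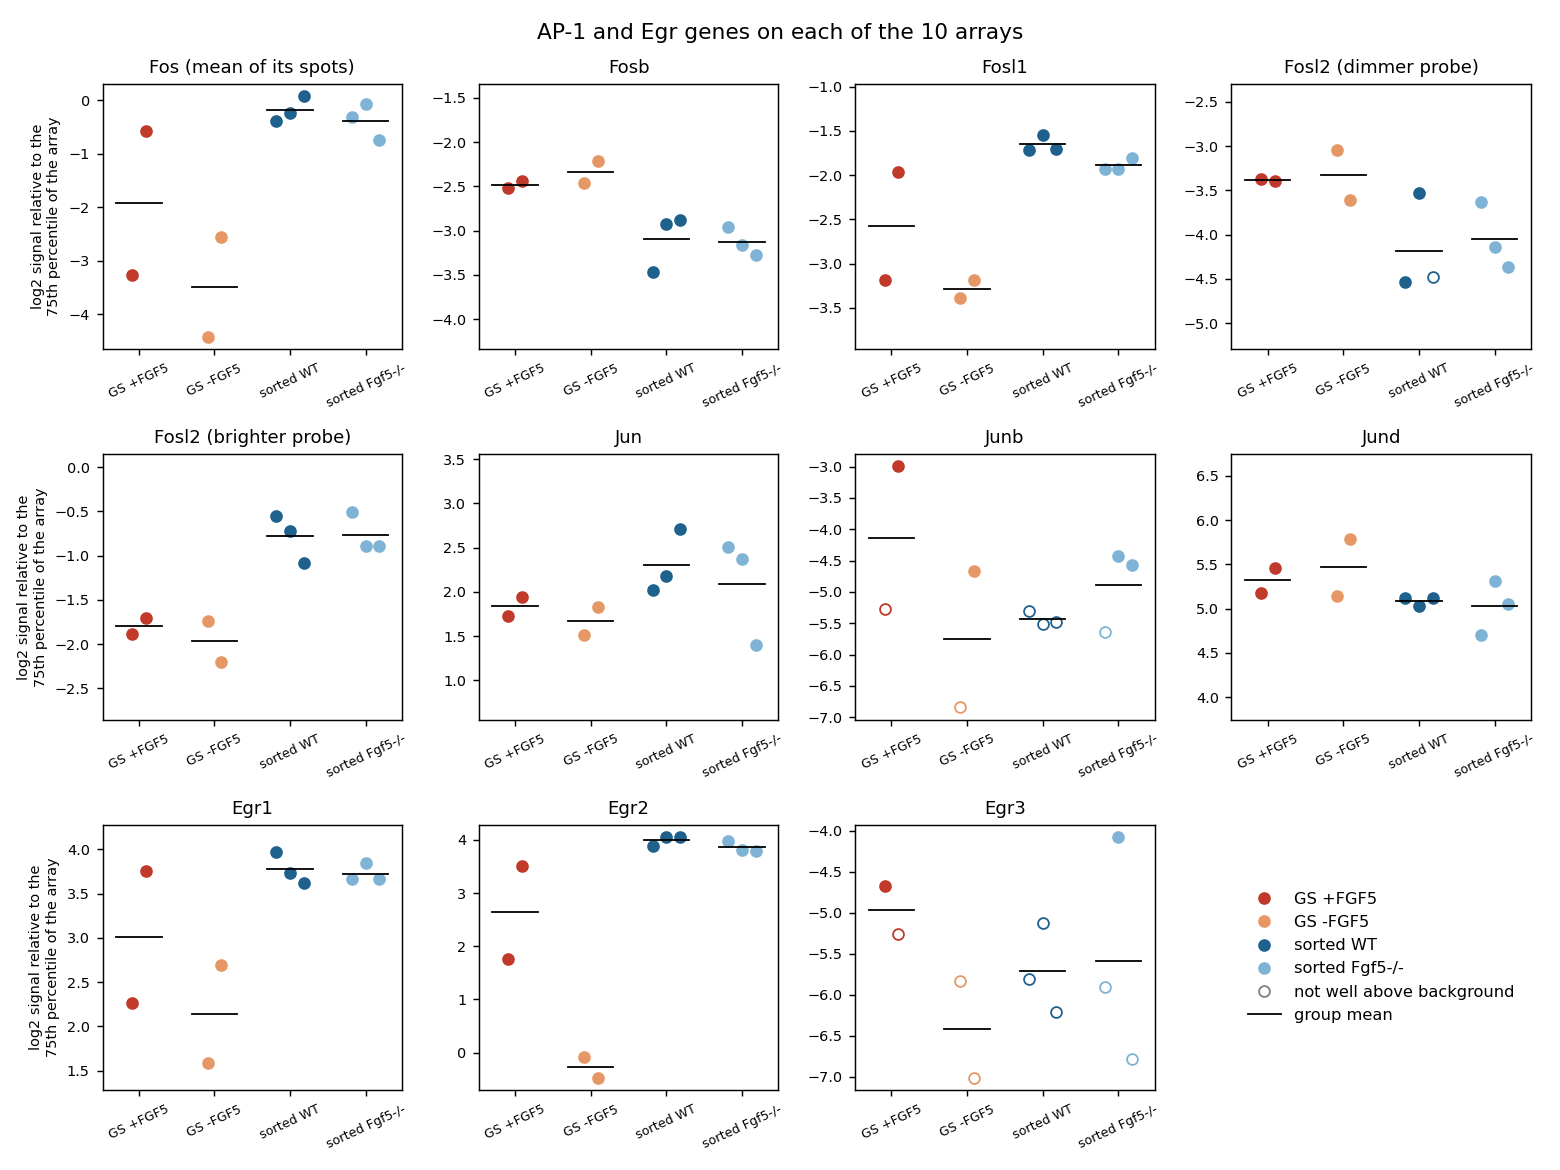
Each panel plots 1 probe, with its log2 signal, centred on the array's 75th percentile, on the y axis and the 4 groups on the x axis. A dot is 1 array, an open dot an array on which the probe was not well above background, and the line the group mean. Fos, Egr1 and Egr2 lie high and close together on the 6 sorted arrays and spread widely over the 4 cultured arrays, with Egr2 lowest on both arrays without FGF5 (-0.08 and -0.48).

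Among GS cells, Egr2, a zinc finger factor known from hindbrain and Schwann cell development, had the largest difference of the 8 tested members between cells with and without FGF5. Its probe (mm9 chr10:67004798-67004857) read 1.77 and 3.51 on the arrays with FGF5 and -0.08 and -0.48 on those without. Both arrays with FGF5 were thus above both arrays without it, and the replicates with FGF5 differed from each other far more than those without. The mean difference was 2.92 on the log2 scale, or 7.55-fold (SE 0.61 log2, 95% confidence interval 1.31 to 4.52, n = 2 and 2). By limma across all probes this had an unadjusted p of 0.00608 and an adjusted p of 1, so it did not pass. Of the 34608 probes tested, 20 had a larger positive difference. The value was 2.04 without replicate 2 with FGF5 and 3.79 without replicate 1 with FGF5.

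No member passed at an adjusted p under 0.05 by limma in this comparison, and 0% of all 34608 tested probes did. At an unadjusted p under 0.05, 1 of 8 members (Egr2) passed, against 2.55% of all tested probes (882). Likewise 1 of 8 was higher on every array with FGF5, against 8.18% of all probes, and none was lower on every array, against 14.5%. The median difference of the 8 members was 0.44, beside -0.03 over all tested probes.

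Fos, the partner of JUN that gives AP-1 its fastest response, read -3.26 and -0.58 with FGF5 and -4.43 and -2.55 without. The 2 groups overlapped, because replicate 2 without FGF5 was above replicate 1 with FGF5. The difference of the means was 1.57 (SE 1.09, 95% confidence interval -1.30 to 4.43, limma adjusted p = 1). It moved to 0.23 without replicate 2 with FGF5 and to 2.91 without replicate 1 with FGF5.

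The repeated Fos spots give the technical spread within an array. On each array 8 to 10 spots were kept, and their SD was between 0.05 and 0.31 log2. The highest SD was on the array without FGF5, replicate 1, where the signal was lowest and 6 of the 10 spots were well above background. On the array with FGF5, replicate 2, the lowest of the Fos spots was -0.71, whereas on replicate 1 the highest was -2.84.

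**Figure D2:**
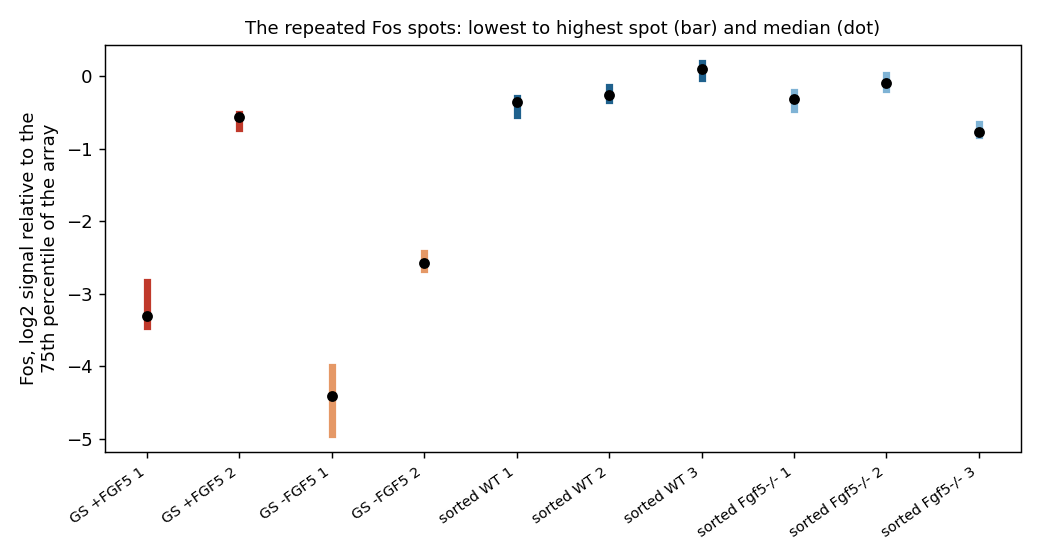
The x axis lists the 10 arrays and the y axis gives the log2 signal of Fos, centred as above. A bar runs from the lowest to the highest of the Fos spots kept and the dot is their median. The bars of the 4 cultured arrays do not meet each other (medians from -4.40 to -0.56), and the 6 sorted arrays have medians from -0.77 to 0.10.

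Egr1, the most widely used marker of the early response, read 2.26 and 3.76 with FGF5 and 1.59 and 2.70 without. The groups overlapped, and replicate 2 was the higher array in each of them. Its difference was 0.87 (SE 0.63, 95% confidence interval -0.80 to 2.53, limma adjusted p = 1), and without replicate 2 with FGF5 it was 0.12.

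Fosl1, a FOS relative that is itself a target of AP-1 and ERK, read -3.19 and -1.97 with FGF5 and -3.39 and -3.19 without. Replicate 2 with FGF5 stood alone, and the other 3 arrays lay together. The difference was 0.71 (SE 0.44, limma adjusted p = 1), and it was 0.10 without that array.

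The remaining tested members differed by less than 0.2 log2 with FGF5. The values were 0.17 for Jun (SE 0.20), -0.15 for Jund (SE 0.28), -0.14 for Fosb (SE 0.18), and 0.18 for the brighter and -0.05 for the dimmer Fosl2 probe (SE 0.22 and 0.24). Their groups overlapped on the arrays. Jun was between 1.51 and 1.95 on all 4 cultured arrays, and its 95% confidence interval was -0.35 to 0.69.

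Junb was well above background on 4 of the 10 arrays, namely replicate 2 of both GS groups and replicates 2 and 3 of the Fgf5-/- cells. It read -5.27 and -2.99 with FGF5 and -6.84 and -4.67 without, so replicate 2 was the higher array in each, as for Fos and Egr1. Egr3, a target of calcium and ERK signalling in other tissues, was well above background on 2 of 10 arrays. It read -4.67 and -5.26 with FGF5, the first of them well above background, and -5.83 and -7.01 without, where neither was. The lower limit of measurable signal leaves no fold for Egr3.

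**Figure D3:**
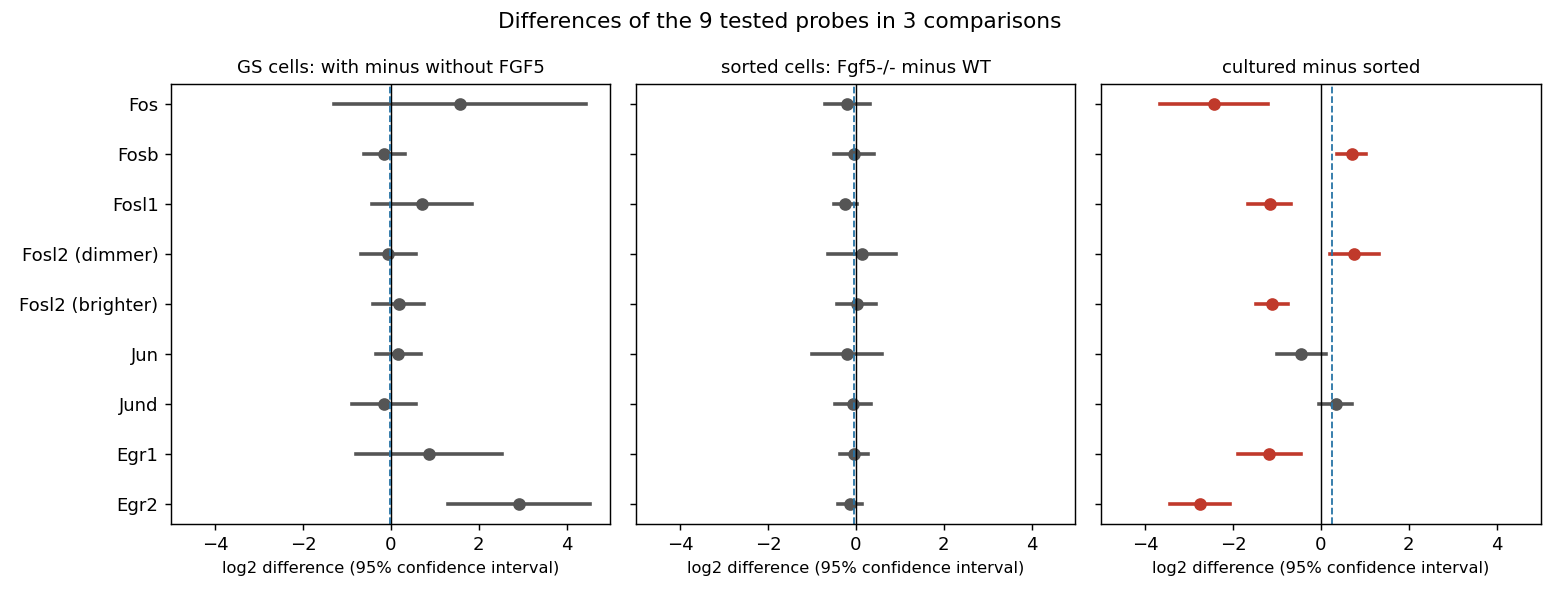
Each panel is 1 comparison and each row 1 of the 9 tested probes, with the log2 difference on the x axis as a dot and its 95% confidence interval from limma as a bar. Red marks an adjusted p under 0.05 and the dashed line the median of all tested probes. With FGF5 the intervals of Fos, Egr1 and Egr2 are wide and Egr2 alone lies clear of 0, the genotypes differ by at most 0.24, and 7 probes are red between cultured and sorted cells.

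In sorted GFRα1+ cells, the loss of Fgf5 went with no called change in these genes. No member passed an adjusted p of 0.05 by limma, and 0% of the 30283 tested probes did (the smallest adjusted p was 0.728). At an unadjusted p under 0.05, 0 of 8 members passed, against 6.79% of all tested probes (2055). The median difference of the members, Fgf5-/- minus WT, was -0.10, beside -0.03 over all probes.

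Egr2 read 3.88, 4.06 and 4.06 in WT cells and 3.98, 3.81 and 3.78 in Fgf5-/- cells. The groups overlapped within a narrow range. The difference was -0.14 (SE 0.11, n = 3 and 3), with a 95% confidence interval of -0.41 to 0.13 and a limma adjusted p of 0.778.

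Egr1 read 3.97, 3.73 and 3.62 in WT and 3.66, 3.85 and 3.67 in Fgf5-/- cells, a difference of -0.05 (95% confidence interval -0.37 to 0.27). Fos read -0.39, -0.25 and 0.08 in WT and -0.32, -0.08 and -0.75 in Fgf5-/- cells, a difference of -0.20 (95% confidence interval -0.71 to 0.31). For both genes the arrays of the genotypes were interleaved.

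Fosl1 was the only member of the 8 with no overlap. It read -1.71, -1.54 and -1.70 in WT and -1.93, -1.93 and -1.81 in Fgf5-/- cells, so every Fgf5-/- array was lower. The difference was -0.24 (SE 0.11, 95% confidence interval -0.49 to 0.02), with an unadjusted limma p of 0.062 and an adjusted p of 0.732. Probes lower on every Fgf5-/- array made up 9.20% of those tested and probes higher on every one 7.01%, against 1 and 0 of the 8 members.

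Jun, the main DNA-binding partner of FOS, had the largest SD of the 9 tested probes over the 6 sorted arrays (0.46). It read 2.02, 2.18 and 2.71 in WT and 2.502, 2.37 and 1.40 in Fgf5-/- cells. The third Fgf5-/- array was the lowest of the 6 for both Jun and Fos, and the third WT array the highest for both. The difference was -0.21 (SE 0.33) and became 0.13 without the third Fgf5-/- array.

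Fosb, Jund and Fosl2 lay close in both genotypes. Fosb differed by -0.04 (SE 0.19), Jund by -0.06 (SE 0.17) and the brighter Fosl2 probe by 0.02 (SE 0.18), and the dimmer Fosl2 probe, not well above background on WT replicate 3, by 0.13 (SE 0.32). Junb was well above background on 0 of 3 WT arrays (-5.31, -5.51 and -5.48) and on 2 of 3 Fgf5-/- arrays (-5.64, -4.43 and -4.57). The difference was not tested, and the Fgf5-/- array below background read lower than every WT array. Egr3 ranged from -6.78 to -4.07 over the 6 sorted arrays and was well above background on 1 of them.

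Across the 6 sorted arrays Fos moved most closely with Gpr89, Susd3, Sass6, Lmx1a and C1qtnf1, of 15534 genes well above background on all of them. Pearson's r with Fos was between 0.96 and 0.98 for these 5, and 26 genes were above 0.9. Jun had r = 0.92, at position 17, whereas Egr2 had 0.57, Fosb 0.58, Jund 0.28, Fosl1 0.08, Egr1 -0.05 and Fosl2 -0.35. These are descriptions over 6 points from 1 slide. They were given with no test.

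Between cultured and freshly sorted cells, Egr2, Fos, Egr1, Fosl1 and Fosl2 (by its brighter probe) were at least 2-fold lower in the cultured cells, Fosb was higher, and Jun and Jund were not called. In several alternative runs the call was kept but the 2-fold size was not. Egr1 was -0.80 without the array with FGF5, replicate 1, and -0.90 without the array lacking FGF5, replicate 1. Fosl1 was -0.86 without the array with FGF5, replicate 1, and -0.71 with normexp background correction. Fosl2 was -0.75 with normexp, -0.96 when scaled by a percentile over probes well above background, and -0.99 without the array lacking FGF5, replicate 2. Here the 2 GS groups together were set against the 2 sorted groups, over 10 arrays. Culture and tissue, the presence of dissociation and sorting, the slide with its scan, and the parent strains all go with this contrast and cannot be told apart, and in bulk RNA fewer cells of a type and less RNA per cell cannot be told apart either.

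Of the 8 members tested, 6 had an adjusted p under 0.05 by limma, against 67.7% of the 35823 tested probes. Thus the share called was close to the background, and the direction differed from it. Lower in culture were 5 of 8 members, against 25.7% of all probes, and higher 1 of 8, against 41.9%. All 5 were called and at least 2-fold lower, as were 10.5% of all probes. The median difference of the members was -1.14 and that of all tested probes 0.26, so values relative to that shift are lower by 0.26.

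Egr2 had its lowest, median and highest values at -0.48, 0.84 and 3.51 on the 4 cultured arrays and at 3.78, 3.93 and 4.06 on the 6 sorted arrays. No cultured array reached the sorted range. The difference was -2.75, or 6.72-fold lower in culture (SE 0.30, limma adjusted p = 8.56e-05), and 519 of the 35823 tested probes had a larger negative difference.

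Against sorted WT cells alone, GS cells without FGF5 were 19.4-fold lower in Egr2 (-4.28, SE 0.42, limma adjusted p = 0.000145), and GS cells with FGF5 were 2.57-fold lower (-1.36, SE 0.42, adjusted p = 0.0259). Both come from the 10-array fit. When the second was fitted on its 5 arrays alone, the adjusted p was 0.0764.

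Fos read -4.43, -2.91 and -0.58 (lowest, median and highest) in culture and -0.75, -0.28 and 0.08 in sorted cells. The array with FGF5, replicate 2, lay inside the sorted range, and the other 3 cultured arrays lay below it. The difference was -2.42, or 5.36-fold lower in culture (SE 0.54, limma adjusted p = 0.00393). The size depended on the arrays with FGF5, being -1.75 without replicate 1 and -3.09 without replicate 2, and on the background correction, being -1.67 with normexp. Cells without FGF5 were 9.89-fold lower than sorted WT cells (adjusted p = 0.00682) and cells with FGF5 were 3.34-fold lower (adjusted p = 0.0863).

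Egr1 read 1.59, 2.48 and 3.76 in culture and 3.62, 3.70 and 3.97 in sorted cells. Again the array with FGF5, replicate 2, fell within the sorted range. The difference was -1.18, or 2.26-fold lower (SE 0.31, limma adjusted p = 0.00935). It was -1.63 for cells without FGF5 against sorted WT (adjusted p = 0.0137) and -0.77 for cells with FGF5 (adjusted p = 0.174).

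Fosl1 read -3.39, -3.19 and -1.97 in culture and -1.93, -1.76 and -1.54 in sorted cells, with every cultured array below every sorted one. It was 2.24-fold lower in culture (-1.16, SE 0.21, limma adjusted p = 0.00147). With Egr2 and the brighter Fosl2 probe, 3 of 8 members were lower on every cultured array, as were 21.0% of all probes, and Fosb alone was higher on every one, as were 34.7%.

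Fosl2 gave opposite answers from its 2 probes, which lie at mm9 chr5:32455088-32455147 and chr5:32460076-32460135 and carry the same accession. The brighter one, at the second position, read -2.20, -1.81 and -1.71 in culture and -1.08, -0.80 and -0.50 in sorted cells, a difference of -1.11 (SE 0.16, limma adjusted p = 0.000344). The dimmer one read -3.61, -3.38 and -3.05 in culture and -4.54, -4.26 and -3.53 in sorted cells, a difference of 0.76 (SE 0.24, adjusted p = 0.0228). With the 2 probes averaged the difference was -0.18 (adjusted p = 0.409), so the call for Fosl2 depends on the probe.

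Fosb, a FOS protein with a truncated splice form known from neurons, went the other way. It read -2.52, -2.45 and -2.21 in culture and -3.47, -3.06 and -2.88 in sorted cells, 1.63-fold higher in culture (0.70, SE 0.15, limma adjusted p = 0.0027). Relative to the shift of all probes the difference was 0.44.

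Jun and Jund were not called. Jun read 1.51, 1.78 and 1.95 in culture and 1.40, 2.28 and 2.71 in sorted cells (-0.45, SE 0.24, limma adjusted p = 0.132). Jund read 5.14, 5.32 and 5.79 in culture and 4.71, 5.09 and 5.31 in sorted cells (0.34, SE 0.17, adjusted p = 0.103). Both genes overlapped between the materials. The Jund call, but not its direction, depended on the scaling (adjusted p = 0.014 after quantile normalization) and on 1 array (0.50, adjusted p = 0.0315 without the array lacking FGF5, replicate 1). Jun was called lower in culture without Fgf5-/- replicate 3 (-0.62, adjusted p = 0.0145) and with the 3 WT arrays as the only sorted cells (-0.55, adjusted p = 0.0499).

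In the 10-array fit, 3 of 8 members were called lower and 1 higher in cells with FGF5 against sorted WT, where 51.0% of all probes were called, and 5 lower and 1 higher in cells without FGF5, where 54.6% were. The effect of FGF5 in culture was also set against that in sorted cells (WT minus Fgf5-/-), a contrast added after the values were seen. By limma over all 10 arrays, Egr2 differed by 2.78 between them (SE 0.59), with an adjusted p of 1. None of the members passed, and 0% of the probes did. The dose in culture, the time of exposure and the lifelong absence of Fgf5 in the mice differ between these effects.

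Markers of other cells moved with the contrast of cultured and sorted cells, and not all markers of a list moved one way. Sums below are over the markers of a list on the array, on a linear scale relative to the 75th percentile, and follow their brightest members. The 5 Sertoli markers summed to 0.449 to 0.912 in culture and 2.51 to 3.15 in sorted cells, with Rhox5, Dhh and Cldn11 lower and Sox9 higher on every cultured array. The 5 spermatid markers summed to 0.837 to 1.03 and 4.52 to 15.98, with 4 of them lower on every cultured array. The 5 spermatocyte markers summed to 21.55 to 29.01 in culture and 20.25 to 24.68 in sorted cells. Of these, Hspa2 and Piwil1 were lower and Sycp1 higher on every cultured array.

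The 4 Leydig markers summed to 4.98 to 6.64 in culture and 0.417 to 1.95 in sorted cells, with Cyp17a1 and Star higher on every cultured array. The 5 macrophage markers summed to 3.78 to 4.65 and 1.03 to 2.08, with Csf1r and Cd68 higher on every cultured array. The endothelial list was mixed. Its sums were 8.07 to 9.67 and 2.39 to 4.65, but Kdr and Pecam1 were higher and Cdh5 and Tek lower on every cultured array. The 10 markers of peritubular cells and fibroblasts summed to 22.0 to 32.0 and 28.1 to 35.2, while Acta2, Col1a2, Dcn and Vim were higher, and Fn1 lower, on every cultured array. Among the 6 markers of undifferentiated spermatogonia, Gfra1, Ret, Nanos2 and Sall4 were lower on every cultured array. The part of these cells in the levels of the AP-1 and Egr genes was not tested.

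The 26 other immediate early genes, listed with the results of these data known, were read the same way, with 24 of them tested in GS cells. With FGF5 none was called by limma, and the median was 0.14, beside -0.03 over all tested probes. The largest differences were for Trib1, a pseudokinase that restrains signalling (2.16, SE 0.66, adjusted p = 1), and Ier3, an ERK-induced survival gene (1.63, SE 0.41, adjusted p = 1). Both were higher on every array with FGF5, as were 6 of the 24 genes and 8.18% of all probes. Lower on every one were 2 of the 24, against 14.5% of all probes. Between the genotypes none of 24 was called by limma, and the median was -0.09, beside -0.03 over all tested probes. The largest differences were Atf3, a stress-induced AP-1 partner, at -0.76 (SE 0.24, adjusted p = 0.728) and Klf6 at -0.36 (SE 0.18, adjusted p = 0.748).

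Between cultured and sorted cells 14 of 25 other immediate early genes were lower in culture and 6 higher by limma, beside 25.7% lower and 41.9% higher of all probes, with a median of -0.69 beside 0.26. Arc, known from synapses (-2.09, adjusted p = 2.58e-06), Trib1 (-1.81, adjusted p = 0.00129), Myc (-1.77, adjusted p = 0.000804, well above background on 1 of 4 cultured arrays) and Ier3 (-1.35, adjusted p = 0.000465) were lower. The RAS-like GTPase gene Gem (1.76, adjusted p = 5.18e-06) and the antiproliferative gene Btg2 (1.67, adjusted p = 9.56e-06) were higher. Like the members, the list thus held genes of both directions.

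Partners and repressors of AP-1 and EGR were tested in 8 of 10 cases. None was called with FGF5 or between genotypes by limma. Jdp2, which pairs with JUN and represses AP-1 sites, had the largest difference with FGF5 (1.61, SE 0.67, adjusted p = 1), followed by Nab1 (-0.25, SE 0.73, adjusted p = 1). Between genotypes the largest were Batf (-0.43, SE 0.15, adjusted p = 0.728) and Jdp2 (-0.20, SE 0.13, adjusted p = 0.763). Cultured cells were lower than sorted cells in Jdp2 (-2.96, adjusted p = 1e-04) and Batf (-2.06, adjusted p = 0.00294) and higher in the EGR corepressors Nab1 (1.03, adjusted p = 0.0307) and Nab2 (0.74, adjusted p = 0.00101).

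Genes known as AP-1 targets were tested in 7 of 12 cases, and none was called with FGF5 or between genotypes by limma. With FGF5, Plaur, the urokinase receptor, was at 2.68 (SE 0.70, adjusted p = 1, well above background on 1 of the 2 arrays without FGF5) and Timp1, a protease inhibitor, at 0.75 (SE 0.17, adjusted p = 1). Between genotypes Plaur was at -0.69 (SE 0.30) and Ccnd1 at -0.26 (SE 0.11, both adjusted p = 0.728). Cultured cells were lower in the cyclin gene Ccnd1 (-4.45, adjusted p = 9.9e-06), in Hmox1, which degrades haem (-1.29, adjusted p = 0.00192), and in Mmp9 (-0.34, adjusted p = 0.0136), and higher in Cd44 (0.42, adjusted p = 0.0486).

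All 12 upstream regulators were tested. With FGF5 the largest differences were Mapk3, which encodes ERK1 (-0.35, SE 0.28, limma adjusted p = 1), and Elk3 (0.28, SE 0.64, adjusted p = 1). Between genotypes they were Mapk8, which encodes JNK1 (-0.33, SE 0.24, adjusted p = 0.764), and Elk1 (-0.28, SE 0.15, adjusted p = 0.748). In cultured against sorted cells 4 were called higher and 6 lower, beside 41.9% and 25.7% of all probes, led by Elk3 (-1.21, adjusted p = 0.00878), Mapk8 (0.96, adjusted p = 0.00798) and Mapk9 (-0.68, adjusted p = 0.000587), followed by Mkl1 (-0.59) and Creb1 (-0.59). Srf, the CArG box factor, was called lower by a small step (-0.30, adjusted p = 0.0127), and it is named here after its value was seen.

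**Figure D4:**
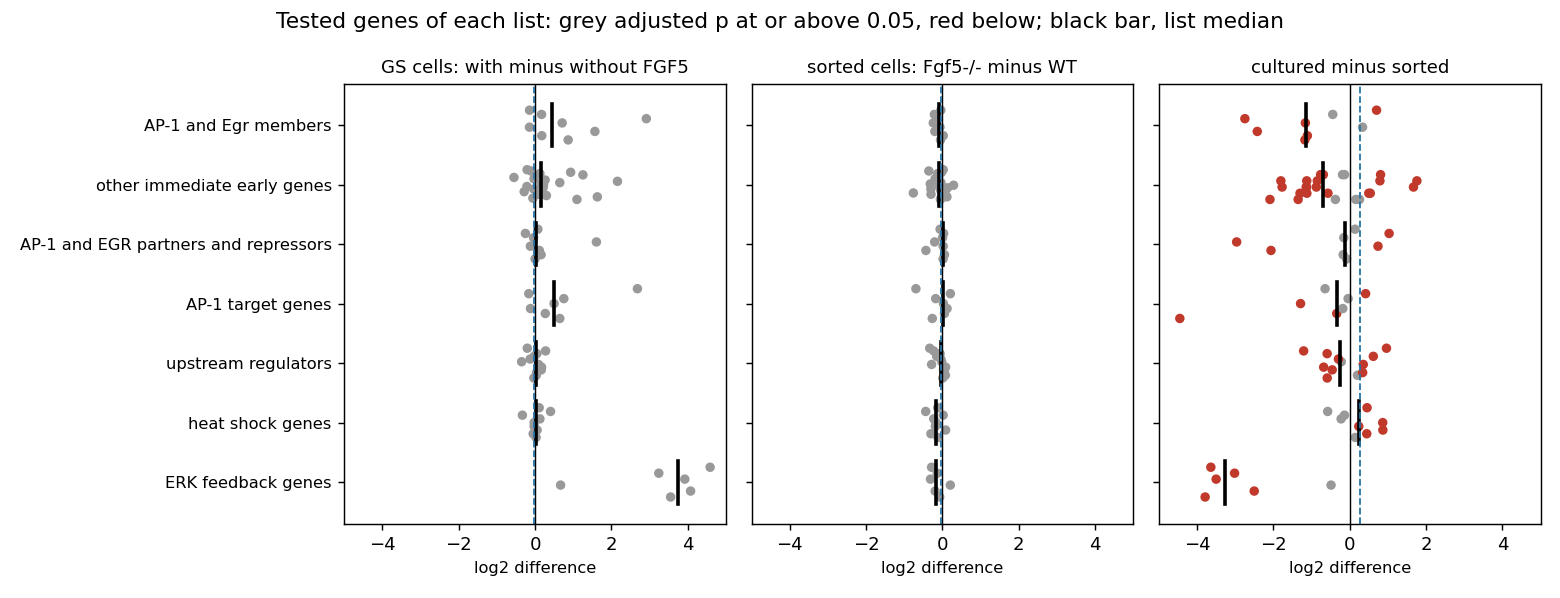
Each dot is 1 tested gene of a list, with its log2 difference on the x axis, in 3 panels for the 3 comparisons. Red marks a limma adjusted p under 0.05, the black bar the list median and the dashed line the median of all tested probes. With FGF5 the medians of the members and the ERK feedback genes are 0.44 and 3.74, with 2 of the 8 members below 0 and no gene red. The 3.74 includes Spry4 and Dusp4, which were tested only through the arrays with FGF5, where they were high. Between genotypes the medians are -0.10 and -0.16, and in cultured against sorted cells -1.14 and -3.26, with 2 of the 8 members above 0.

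As the sorted cells were dissociated, 9 heat shock genes on the array were read beside the members. None was called with FGF5 (the largest were Hspb1 at 0.41 and Hspa1a at -0.33) or between genotypes (Hspb1 at -0.44 and Hsp90aa1 at -0.30) by limma. In cultured against sorted cells 5 of 9 were higher in culture and none lower, beside 41.9% and 25.7% of all probes, and their median of 0.24 lay at that of all probes (0.26). The 5 were Hspa8 (0.87, adjusted p = 0.000533), Hsph1 (0.86, adjusted p = 0.000245), Hspe1 (0.45, adjusted p = 0.0172), Hsp90aa1 (0.45, adjusted p = 0.00201) and Hspd1 (0.24, adjusted p = 0.0342). Those not called were Hspb1 (-0.58, SE 0.30), Dnajb1 (-0.23, SE 0.16), Hspa1a (-0.14, SE 0.22) and Dnaja1 (0.15, SE 0.08), named after their values were seen. Whether sorting raised the members in the sorted cells was not tested, since no unsorted sample of these cells was analysed here.

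ERK feedback genes, which are induced by ERK and dampen it or act beside it, were read beside the members. ERK activity itself was not measured. With FGF5 none of the 6 was called by limma, and 0% of all tested probes were. Spry4 and Dusp4 were well above background on 0 and 1 of the 2 arrays without FGF5. Both were thus tested only through the arrays with FGF5, where they were high, so they are not counted here. The other genes, Dusp6, Etv5, Etv4 and Spry2, were higher on every array with FGF5, as were 8.18% of all probes. Etv5 was at 3.92, Etv4 at 3.24 and Spry2 at 0.67. The median of the whole list, with Spry4 and Dusp4 in it, was 3.74, beside -0.03. Dusp6, an ERK phosphatase, was at 4.59 (24.1-fold, SE 0.62, adjusted p = 1), and Spry4 was at least 6.38-fold higher, being not well above background on either array without FGF5. Between genotypes the median was -0.16, with Etv5 at -0.31 and Dusp6 at -0.28 (SE 0.12 and 0.11, both adjusted p = 0.728). In cultured against sorted cells 5 of 6 were called lower by limma, beside 25.7% of all probes, and the median was -3.26, beside 0.26. The 5 were Dusp4 (-3.79), Dusp6 (-3.64), Etv5 (-3.50), Etv4 (-3.02) and Spry4 (-2.50). Dusp4 and Spry4 were well above background on 3 and 2 of the 4 cultured arrays. Egr2 was at 2.92, -0.14 and -2.75 in the same 3 comparisons, and whether it follows the ERK feedback genes was not tested.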

How the data were processed

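Members, gene lists and motifs were chosen with earlier results of these data known. Total RNA (25 ng) was labelled with Cy3, hybridized to 8x60K arrays and scanned by the authors. Agilent Feature Extraction (10.7.1.1 in the file headers, 10.7.3.1 in the submitters' processing notes) gave the deposited intensity of each spot, background-subtracted by the authors' software. The authors' deposited table holds log2 values scaled by a 75th percentile shift with signals under 1 set to 1, and differed from the scanner values by a constant per array. It was used as an alternative.

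From the scanner files, non-control spots (59305 on 55681 probes) were floored at 1, put on the log2 scale and centred on the array's 75th percentile. Spots marked as outliers (117 to 205 per array) were left out, and spots of a probe averaged. A probe that was well above background throughout 1 or more of the groups compared was tested with limma 3.58.1 (R 4.3.3), two-sided, with Benjamini-Hochberg adjustment over all tested probes, separately for GS cells, for sorted cells, and over all 10 arrays for cultured against sorted cells. A call is an adjusted p under 0.05. A gene was read from its brightest probe.

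All members were reported with every probe. From the other lists the called genes were named (the 6 with the largest difference where there were more), or the 2 with the largest difference where none was called. One gene that this rule names is not reported here. The contrasts of single groups and of both FGF5 effects from the 10-array fit were added after the values were seen. GS arrays shared 1 slide and scan, and sorted arrays another. On the sorted slide the genotypes lay in different rows and on the GS slide FGF5 went with the column, so position and group cannot be told apart. Precision is limited by how many arrays there were. The scripts were tested on simulated data. Coordinates of probes are those of the files (mm9), and promoter sequences are from RefSeq (GRCm38.p6). All 10 member accessions matched RefSeq symbols. Exon annotation of mm9 was not used here.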

Additional observations from a re-analysis of the deposited data

How the results depend on the processing

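With FGF5 and between genotypes 0 members were called under every alternative run, which were quantile normalization, the authors' table, a percentile over probes well above background, normexp, other filters, a floor of 16, outlier spots kept, an intensity trend, averaged probes, each array left out (0 to 0) and the replicate number as a block (0 called in both). The equal replicate numbers are not stated to pair samples. Deviations of same-numbered arrays correlated at 0.64 in GS cells and at -0.42, -0.16 and -0.15 in sorted cells. With the block, the SE of the FGF5 difference in GS cells was 0.15 for Egr1, 0.23 for Fos and 0.55 for Egr2. Without it these were 0.63, 1.09 and 0.61.

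In cultured against sorted cells 6 members were called, 6 to 7 with each array left out, 5 with probes averaged and 7 after quantile normalization. Only 1 (the brighter Fosl2 probe) was called when GS cells with FGF5 were set against sorted WT on 5 arrays. The cause was not tested. Quantile normalization moved the share higher in culture among the called probes from 62% to 55.4%, the stricter filter to 54.8%, and the shift of all probes ranged from 0.08 to 0.41.

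Directions that turned belonged to small uncalled differences. In GS cells without the array lacking FGF5, replicate 2, Jund was 0.17 and Fosl2 -0.057. Between genotypes, Jund and Egr1 were 0.093 and 0.063 after quantile normalization, Egr1 and Fosb 0.01 and 0.018 with the percentile over probes well above background, and Fosl2 -0.034 with normexp. With an array left out, Egr1 was 0.05 (without WT 1), Fosb 0.042 (without WT 2), 0.064 (without WT 3) and 0.03 (without Fgf5-/- 3), Fosl2 -0.13 (without WT 3) and -0.11 (without Fgf5-/- 1), Jund 0.10 (without Fgf5-/- 1) and Jun 0.13 (without Fgf5-/- 3). The cause was not tested. Over arrays left out, Jund ranged from -0.47 to 0.17 and Fosl2 from -0.057 to 0.41 in GS cells. Between genotypes Jund ranged from -0.21 to 0.095, Egr1 from -0.13 to 0.05, Jun from -0.42 to 0.13, Fosl2 from -0.13 to 0.14 and Fosb from -0.23 to 0.064. Egr2 with FGF5 lay between 2.04 and 3.79 with each array left out. Junb and Egr3 were too close to background for a test.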
